A study of Mus musculus with 108 samples.

Results

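Gene deserts, the longest stretches of the mouse genome without an annotated gene, were followed through the chromatin states of the liver at 3 and at 12 months of age. A desert was an autosomal interval of 500 kb or more between consecutive genes of the mm10 (GRCm38) RefSeq annotation, with genes of every biotype and pseudogenes counted as borders and the first 3 Mb of each chromosome left out. This rule, which used no measured value, gave 176 deserts among 33281 autosomal intergenic intervals. They held 610986 bins of 200 bp, a total of 122 Mb or 5.08% of the autosomal bins. The study profiled H3K4me3, H3K27me3, H3K27ac and H3K4me1 by ChIP-seq in chromatin from formalin-fixed, paraffin-embedded livers of female mice of the inbred strain C57BL/6. SD 3m comprised 8 mice of 3 months on standard diet (30 libraries), SD 12m comprised 8 mice of 12 months on standard diet (29 libraries), and CR 12m comprised 9 mice of 12 months whose diet held 30% fewer calories from 3 months of age onward (29 libraries). SD 6m was not analysed here.

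Gene deserts are typically rich in A and T, replicate late and in many cell types lie at the nuclear lamina, the protein mesh that lines the nucleus and holds inactive chromatin. Some of them carry enhancers that act over long distances on developmental genes, while others have no known function. H3K4me3 is laid down at active promoters, H3K27ac and H3K4me1 mark enhancers, and H3K27me3 is the mark of Polycomb, the complexes that keep developmental genes silent. The deposited value is the state of each bin in a model with 8 states, which the study named by their marks. States 1 and 2 are the active start site and its flanks, states 3 and 4 are active enhancers, state 5 is a poised enhancer, and state 6 is Polycomb chromatin with H3K27me3. State 7 holds weak H3K4me3 with little H3K27me3 and neither of the enhancer marks, and was tied by its label to repeats and to constitutive lamina-associated domains. State 8 is quiescent chromatin without any of the 4 marks.

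Each group had 1 segmentation made from the merged libraries of all its mice, so no difference between groups could be set against the spread between mice and no test was made. The depth behind a state is unknown. Wilson 95% intervals, which cover the number of bins only and treat neighbouring bins as independent, were at most 0.125 percentage points on either side of any share of desert bins. The groups differed in the number of libraries behind the marks that define states 6 and 7 (for H3K4me3, 7 at 3 months, 8 in SD 12m and 5 in CR 12m; for H3K27me3, 7, 8 and 6), and the part of this in the results was not tested. In whole liver, a mark present in few cells and a weak mark in all cells cannot be told apart. The start sites of 8 of 8 hepatocyte genes, among them Alb and Apob, were in states 1 to 5 in all 3 groups. Start sites of 13 genes of other liver cells were in these states for 8, 6 and 6 genes at 3 months, SD 12m and CR 12m, and those of 4 genes that liver cells do not use for none.

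The sequence of deserts is shown by the bin of 200 bp in the middle of the longest unbroken stretch of each kind inside a desert, since these stretches mark the extremes described further on. The longest stretch in state 7 in SD 12m covered 284.6 kb (chr10:47945201-48229800), and its middle bin was chr10:48087401-48087600. The longest in state 7 in CR 12m covered 87.6 kb (chr13:87192801-87280400), with the middle bin chr13:87236601-87236800, and the longest in state 7 in all 3 groups covered 19 kb (chr13:86720001-86739000), with the middle bin chr13:86729401-86729600. The longest stretch in state 6 in all 3 groups covered 46.2 kb (chr2:134001401-134047600), with the middle bin chr2:134024401-134024600. The longest in states 1 to 5 in all 3 groups covered 69.8 kb (chr2:12854201-12924000), with the middle bin chr2:12889001-12889200, and the longest in state 8 in all 3 groups covered 302 kb (chr16:7997601-8299600), with the middle bin chr16:8148601-8148800. Sequences are from the reference assembly (mm10, forward strand), are intergenic in RefSeq and carry each CG dinucleotide, the site of DNA methylation, in capitals.
state 7 in SD 12m: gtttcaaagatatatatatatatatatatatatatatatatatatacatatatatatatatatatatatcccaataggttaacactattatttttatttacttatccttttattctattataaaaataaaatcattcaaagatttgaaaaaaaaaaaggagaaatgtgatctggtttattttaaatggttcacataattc
state 7 in CR 12m: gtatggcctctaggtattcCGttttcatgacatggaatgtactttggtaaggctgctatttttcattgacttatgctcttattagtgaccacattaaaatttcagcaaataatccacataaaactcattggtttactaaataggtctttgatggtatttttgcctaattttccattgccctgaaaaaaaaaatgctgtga
state 7 in all 3 groups: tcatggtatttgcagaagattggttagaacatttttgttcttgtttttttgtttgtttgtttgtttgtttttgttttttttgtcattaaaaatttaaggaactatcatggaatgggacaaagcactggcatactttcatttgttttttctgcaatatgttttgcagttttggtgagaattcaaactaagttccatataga
state 6 in all 3 groups: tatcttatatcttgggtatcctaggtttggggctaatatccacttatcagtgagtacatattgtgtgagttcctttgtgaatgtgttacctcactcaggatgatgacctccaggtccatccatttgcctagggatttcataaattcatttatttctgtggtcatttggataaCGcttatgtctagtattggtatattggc
states 1 to 5 in all 3 groups: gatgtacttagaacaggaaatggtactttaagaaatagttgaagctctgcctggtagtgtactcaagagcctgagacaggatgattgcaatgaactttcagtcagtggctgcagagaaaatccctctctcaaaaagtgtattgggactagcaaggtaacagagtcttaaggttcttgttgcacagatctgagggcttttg
state 8 in all 3 groups: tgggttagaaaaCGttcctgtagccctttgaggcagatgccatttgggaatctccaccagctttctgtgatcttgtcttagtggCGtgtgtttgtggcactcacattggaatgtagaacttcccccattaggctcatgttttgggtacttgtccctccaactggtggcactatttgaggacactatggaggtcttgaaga

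The middle bins in state 7 held 16% (SD 12m stretch), 33.5% (CR 12m stretch) and 29% (all 3 groups) of G or C, against 38.5% in the state 6 bin, 42.5% in the bin of states 1 to 5, which was in state 3 in each group, and 47.5% in the state 8 bin. They held 0, 1 and 0 CG, the state 6 bin held 1, the bin of states 1 to 5 held 0 and the state 8 bin held 2. A single bin describes that bin alone. Over all deserts, 55.7% of bins held at least 1 CG, against 70.0% of all autosomal bins.

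The 176 deserts were 500.1 to 1468 kb long, with a median of 640.2 kb, and are named here by the nearest protein-coding gene on each side, which often lies beyond the border. Their GC content was 37.5%, against 42.2% in the other autosomal bins, and they held 4.98 CG per kb against 8.65. Bases that the reference marks as repeats made up 43.3% of desert sequence and 32.9% of the other autosomal bins. Of the 352 genes at their borders, 160 were pseudogenes, 94 were genes of long non-coding RNA and 43 were protein-coding. No protein-coding gene lay within 500 kb of either end of 51 deserts, and 40 deserts had one directly at an end. GENCODE M21, an annotation that the rule did not use, placed 376 genes inside the deserts, of which 168 were processed pseudogenes, 84 were long intergenic non-coding RNA genes and 14 were protein-coding. In 27 deserts GENCODE placed no gene, and the median share of state 7 in these was 1.05% at 3 months, 46.0% in SD 12m and 12.6% in CR 12m, beside 1.39%, 45.2% and 11.5% in the 149 others.

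At 3 months the deserts were almost empty of the 4 marks, and at 12 months on standard diet nearly as many of their bins were in state 7 as in state 8. State 8 held 96.3% of desert bins at 3 months, 49.0% in SD 12m and 80.8% in CR 12m. State 7 held 2.31% at 3 months (Wilson 95% interval 2.27 to 2.34), 45.1% in SD 12m (45.0 to 45.2) and 15.6% in CR 12m (15.5 to 15.6). The share of state 7 was thus 19.6 times as high in SD 12m as at 3 months and 6.74 times as high in CR 12m as at 3 months. In the other autosomal bins, state 7 held 1.95%, 10.4% and 3.85%, which was 5.34 and 1.98 times the SD 3m value. Deserts and the rest of the autosomes therefore differed by 0.361 percentage points at 3 months, by 34.7 points in SD 12m and by 11.7 points in CR 12m. The small difference at 3 months changed sign when the median over deserts (-0.613 points) or the most frequent state of 10 kb windows (-0.217 points) was used. Deserts held 5.97% of all autosomal bins in state 7 at 3 months, close to their share of the autosomes, but 18.9% in SD 12m and 17.8% in CR 12m.

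Polycomb chromatin was scarce in deserts in every group. State 6 held 0.872% of their bins at 3 months, 5.48% in SD 12m and 3.19% in CR 12m, against 8.87%, 13.1% and 9.99% of the other autosomal bins. Few deserts carried most of it, as the medians over deserts were 0%, 0.383% and 0.376%, with little difference between the groups of 12 months. With only protein-coding genes as borders, state 6 held 4.21%, 10.6% and 6.90%. The difference of deserts minus the other bins was -7.99 points at 3 months, -7.57 points in SD 12m and -6.81 points in CR 12m. Enhancer states were rarer still. State 4, the most frequent of states 1 to 5 in deserts, held 0.239% of desert bins at 3 months, 0.190% in SD 12m and 0.255% in CR 12m, against 7.22%, 10.6% and 9.22% elsewhere. State 3 held 0.0874%, 0.0941% and 0.115% of desert bins, and state 5 held 0.161%, 0.140% and 0.0692%. State 1, the active start site, held 23, 7 and 3 bins, and state 2 held 4 bins at 3 months and 0 in both groups at 12 months, where the Wilson upper limit was 0.000629% and 3 bins, the usual limit for a count of 0, would be 0.000491%. Most of the bins in states 1 and 2 at 3 months lay in a single desert, between Adamts5 and N6amt1, which is described below. Their lower counts at 12 months therefore do not describe deserts at large.

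**Figure D1:**
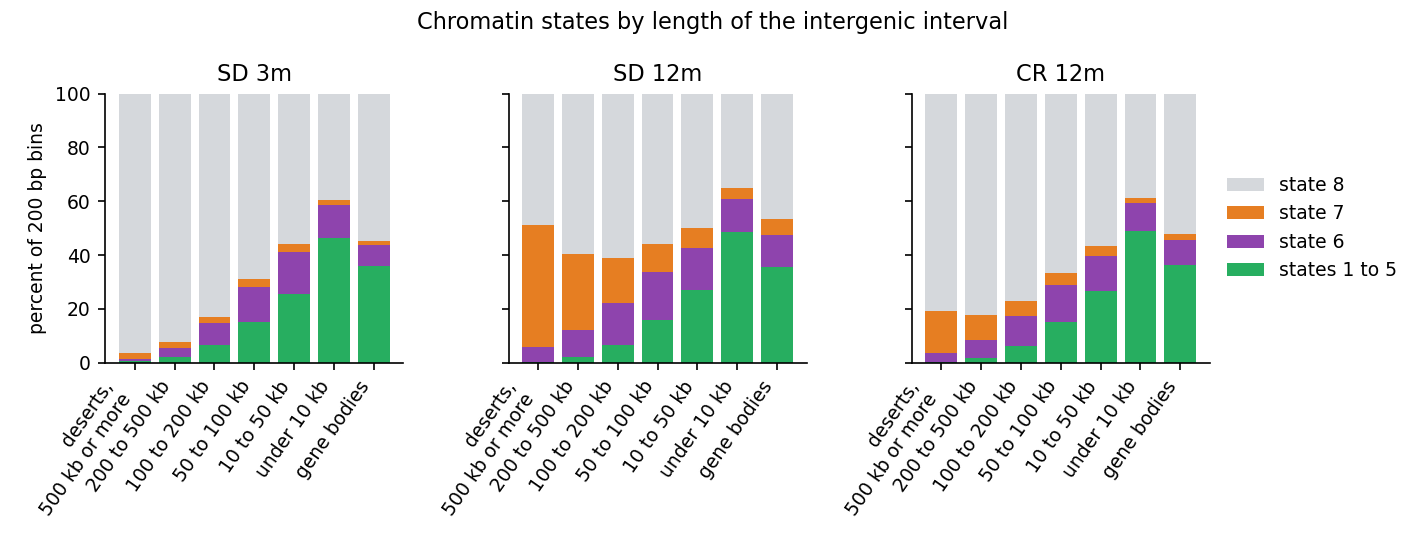
Stacked bars give the percent of 200 bp bins (y axis, 0 to 100) in states 1 to 5 (green), 6 (purple), 7 (orange) and 8 (grey) for each length class of intergenic interval and for gene bodies (x axis), with a panel for each group. State 7 takes 45.1% of desert bins in SD 12m and 15.6% in CR 12m, and its share becomes smaller with each shorter class of interval.

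The bins that left the quiescent state in deserts went mostly to state 7. Of the 588564 desert bins in state 8 at 3 months, 44.8% were in state 7 in SD 12m, and 14.9% were in state 7 in CR 12m. Over all autosomal bins in state 8 at 3 months, the background was 16.4% for SD 12m and 5.2% for CR 12m. A change from state 8 to state 6 was seen in 5.30% of these desert bins in SD 12m, below the autosomal background of 11.8%, and in 2.96% in CR 12m, below the background of 7.64%. Among desert bins that had left state 8, state 7 was the new state of 89.3% in SD 12m and 82.9% in CR 12m, and state 6 that of 10.6% and 16.5%. In the other autosomal bins, state 7 took 47.9% of those that left state 8 in SD 12m. In all, 49.5% of desert bins were in another state in SD 12m than at 3 months, and 19.3% in CR 12m. Both comparisons share the SD 3m segmentation.

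The few bins already in state 7 at 3 months mostly kept it on standard diet. Of 14093 such desert bins, 84.2% were in state 7 in SD 12m and 14.7% were in state 8, while 51.5% were in state 7 in CR 12m and 46.4% were in state 8. In the other autosomal bins state 7 was kept by 71.8% in SD 12m and 52.9% in CR 12m, so that the share for CR 12m was close to that of the rest of the autosomes. Of the 5325 desert bins in state 6 at 3 months, 41.1% were in state 6 in SD 12m and 32.3% in CR 12m, and 57.9% and 66.9% were in state 8. Elsewhere state 6 was kept by 56.4% and 51.5%. The active enhancer state 3 was kept by 67.4% of its 534 bins in SD 12m and by 72.7% in CR 12m, against 85.8% and 89.2% elsewhere. State 4 was kept by 42.6% of 1461 bins and by 54.0%, against 73.7% and 62.8% elsewhere. State 5 was kept by 40.9% of 982 bins and by 23.9%, against 30.3% and 25.2%. The shares for states 3 to 6 rest on few regions, since their bins are neighbours. At 3 months states 1 to 5 came in 110 stretches in 34 deserts, and state 6 came in 85 stretches in 22 deserts.

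The groups of 12 months were also compared directly, as they differ in diet and not in age. State 7 was 2.90 times as frequent in deserts in SD 12m as in CR 12m. Of the 95046 desert bins in state 7 in CR 12m, 86.6% were in state 7 in SD 12m too, which was 29.9% of the 275566 state 7 bins of SD 12m. A further 69.3% of the SD 12m state 7 bins were in state 8 in CR 12m and 0.888% were in state 6. In the opposite direction, 4.14% of the SD 12m state 8 bins had state 7 under caloric restriction. For state 6, the shared bins were 58.7% of those in CR 12m and 34.1% of those in SD 12m.

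The share of state 7 followed the length of the gene-free interval at 12 months but not at 3 months. In SD 12m it was 45.1% in deserts, 28.3% in intervals of 200 to 500 kb, 16.6% in those of 100 to 200 kb, 10.3% in those of 50 to 100 kb, 7.56% in those of 10 to 50 kb, 3.98% in those under 10 kb and 5.87% in gene bodies. In CR 12m these shares were 15.6%, 9.34%, 5.65%, 4.22%, 3.59%, 1.96% and 2.24%. In SD 3m they lay between 1.47% in gene bodies and 2.97% in intervals of 10 to 50 kb, with 2.31% in deserts. State 6 at 3 months was higher in shorter intervals, from 0.872% in deserts to 3.51% in those of 200 to 500 kb and 15.6% in those of 10 to 50 kb, but it was 12.1% in those under 10 kb and 7.66% in gene bodies.

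An interval was counted as gaining state 7 where its share was at least 10 percentage points higher than at 3 months. In SD 12m this held for 151 of the 176 deserts (85.8%), against 31.6% of all 5876 autosomal intergenic intervals of 50 kb or more. It held for 56.8% of the intervals of 200 to 500 kb, 33.8% of those of 100 to 200 kb and 19.4% of those of 50 to 100 kb. In CR 12m it held for 83 deserts (47.2%), against 13.7% of all these intervals and 25.7%, 13.7% and 7.94% of the shorter classes. The median difference of state 7 from SD 3m was 41.9 points over deserts in SD 12m and 9.33 points in CR 12m, beside 0.603 and 0 points over all 5876 intervals. A short interval holds few bins, so its share moves in larger steps than that of a desert.

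Deserts differed widely among themselves at 12 months. In SD 12m the share of state 7 per desert ran from 0.56% to 92.1%, with a median of 45.2% and quartiles of 23.0% and 65.6%. In CR 12m it ran from 0% to 66.8% with a median of 11.8%, and at 3 months from 0% to 14.7% with a median of 1.33%. Compared with 3 months, state 7 was more frequent in 173 deserts in SD 12m and in 159 in CR 12m. All 176 deserts had more state 7 in SD 12m than in CR 12m, by at least 10 points in 149 of them. These counts were not taken over other intervals, where state 7 was higher at 12 months too. Over intervals of 200 to 500 kb its median difference from SD 3m was 14.2 points in SD 12m and 2.35 points in CR 12m. The other autosomal bins had 10.4% of state 7 in SD 12m and 3.85% in CR 12m. Over 50% of the bins were in state 7 in 74 deserts in SD 12m, in 2 in CR 12m and in none at 3 months. The deserts with most state 7 in SD 12m were largely those with most in CR 12m (Pearson r 0.882, Spearman rho 0.946 over 176 deserts of 2 segmentations, which come from different mice and share the sequence under each desert). The share at 3 months was a weaker guide to that in SD 12m (r 0.356, rho 0.392).

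**Figure D2:**
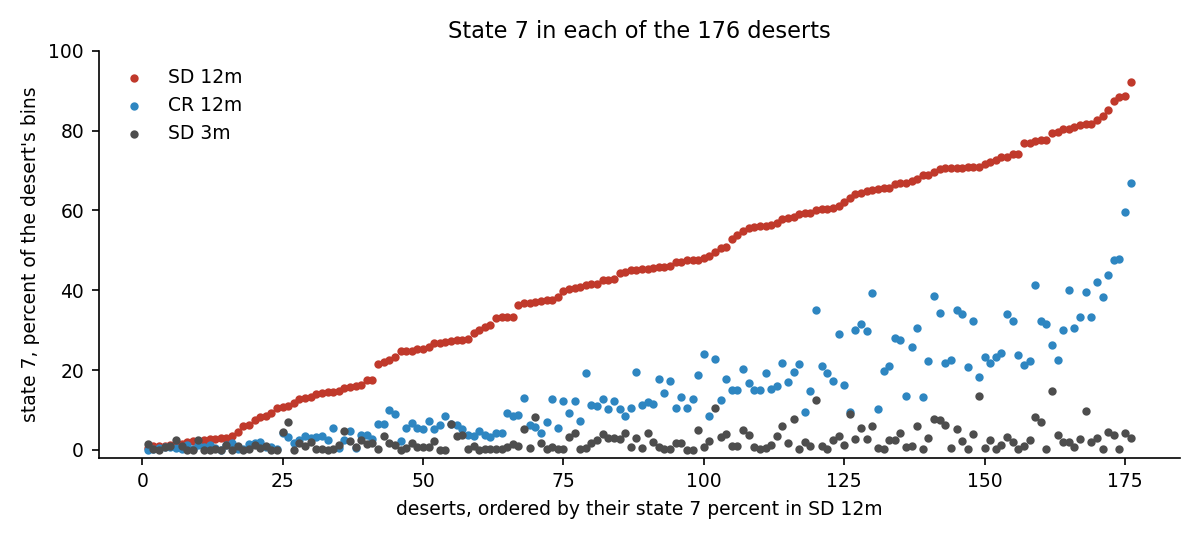
Each desert is a column of 3 points that give the percent of its bins in state 7 (y axis) in SD 12m (red), CR 12m (blue) and SD 3m (black), with the 176 deserts ordered by the SD 12m value (x axis). The red points run from 0.56% to 92.1% and lie above the blue point of the same desert in every case, and no black point exceeds 14.7%.

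The longest desert covered 1468 kb (chr4:29196279-30664595), with Epha7, an ephrin receptor that guides axons, as the nearest protein-coding gene on the left and Map3k7, a kinase of inflammatory and TGF-beta signalling, on the right. State 7 held 2.83% of it at 3 months, 81.4% in SD 12m and 33.3% in CR 12m. A further one covered 1311 kb (chr15:14466670-15778113) between the cadherin genes Cdh6 and Cdh9, with 0.305%, 56.1% and 15.1% in the same order. The desert between Olfm4, which encodes a secreted glycoprotein, and the protocadherin gene Pcdh17 covered 1283 kb (chr14:82122227-83405630) and had 0.748%, 80.9% and 30.5%. None of these 3 held a bin in state 6 in any group. The fourth, 1272 kb between D3Ertd751e and the protocadherin gene Pcdh10, which lies 2128 kb away (chr3:41978126-43250386), had 5.20%, 36.8% and 12.9% of state 7. The fifth, 1219 kb between Lcorl and the guidance cue gene Slit2 (chr5:46415439-47634491), had 1.07%, 29.2% and 3.48%. These last 2 also held 2.17% and 1.43% of state 6 in SD 12m. Length itself was only weakly related to state 7 among deserts (r 0.234 in SD 12m and 0.209 in CR 12m, n = 176).

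The largest difference in state 7 between SD 12m and SD 3m was found between Hace1, a ubiquitin ligase gene, and Grik2, which encodes a kainate-type glutamate receptor subunit (chr10:47754895-48619260). Its share was 2.92% at 3 months, 92.1% in SD 12m and 66.8% in CR 12m, and the difference for CR 12m was the largest as well. The desert between Manea, a gene of glycoprotein processing, and Epha7 (chr4:26858024-27700670) had 0.0950%, 88.4% and 47.9%. That between the receptor phosphatase gene Ptprd and Tyrp1, a gene of melanin synthesis (chr4:78597485-79244586), had 4.24%, 88.6% and 59.5%. A pair of neighbouring deserts between Cox7c, a subunit of the mitochondrial respiratory chain, and Edil3, an integrin ligand, was among the 5 highest in CR 12m. The first of them (chr13:86748617-87307725) had 3.61%, 87.3% and 47.5%, and the second (chr13:87827258-88509505) had 4.37%, 85.2% and 43.8%. The fifth for SD 12m adjoins the Olfm4 and Pcdh17 desert given above (chr14:83405765-84046430) and had 0.125%, 83.5% and 38.3%. None of these 6 deserts held a bin in states 1 to 5 in any group, and their repeats covered 44.3% to 54.4% of the sequence.

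State 7 was most frequent at 3 months in a pair of deserts beside Cntnap5a, a member of the neurexin family. The desert between Dsel and Cntnap5a (chr1:113935305-114860187) had 14.7% at 3 months, 79.4% in SD 12m and 26.3% in CR 12m, and the desert on the other side of Cntnap5a (chr1:116587324-117392255) had 13.5%, 70.9% and 18.2%. The third, which starts at the end of Ythdf3, the gene of a reader of RNA methylation (chr3:16217038-16817093), had 12.4%, 59.99% and 35.0%, and with 57.7% it had the highest share of repeats of all deserts.

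The 4 deserts singled out for their Polycomb chromatin had less state 7 at 12 months than the median desert (45.2% in SD 12m, 11.8% in CR 12m). The states of a desert divide its bins among them, so a high share of state 6 leaves less room for state 7. In SD 12m this comparison was therefore largely fixed by the choice of deserts. The desert between Bmp2, a growth factor gene of the BMP family, and Hao1, which encodes the glycolate oxidase of hepatocytes (chr2:133790008-134497360), had 24.7% of state 6 at 3 months, 66.1% in SD 12m and 68.6% in CR 12m, and state 7 held 1.05%, 1.13% and 0.792%. The 46.2 kb stretch in state 6 in all 3 groups, whose middle bin is printed above, lies in it. The desert between Tom1l1 and Kif2b (chr11:90895153-91560592) held no state 6 bin at 3 months but 72.2% in SD 12m and 41.2% in CR 12m. Next to it, between Kif2b and Car10 (chr11:91831389-92769979), state 6 held 0%, 52.8% and 16.1% and state 7 held 0%, 2.69% and 1.32%. The desert between Sqor, a gene of sulfide oxidation, and Sema6d, a guidance gene (chr2:122931341-123774494), had 0.641%, 59.5% and 47.2% of state 6 with 4.63%, 15.6% and 2.51% of state 7. State 6 exceeded state 7 in 14 deserts at 3 months, 21 in SD 12m and 33 in CR 12m, and 154 deserts had no bin in state 6 at 3 months against 78 in each group of 12 months. State 6 was higher than at 3 months in 94 deserts and lower in 6 in SD 12m, and higher in 93 and lower in 8 in CR 12m. These counts were not taken over other intervals. State 6 was higher at 12 months in the other autosomal bins as well, with 8.87% at 3 months, 13.1% in SD 12m and 9.99% in CR 12m. Some deserts with much state 6 at 3 months had far less of it at 12 months. The lowest difference from 3 months in any desert was -35.9 points in SD 12m and -36.0 points in CR 12m. In the desert between St3gal1 and Zfat, described below, state 6 held 22.8% at 3 months, 8.66% in SD 12m and 1.05% in CR 12m.

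States 1 to 5, which include the poised enhancer state 5, were found in a minority of deserts. Of the 176, 44 had a bin in these states in at least 1 group. That count was not taken over other intervals. The highest share was in the shortest desert, between Adamts5, an extracellular protease gene, and N6amt1, a methyltransferase gene (chr16:86269789-86769925), where these states held 28.5% of bins at 3 months, 17.6% in SD 12m and 17.6% in CR 12m. It was 1 of the 3 deserts with less state 7 in SD 12m than at 3 months (1.44%, 0.56% and 0%). The others were chosen after their values were seen. One lies toward Dhx35 (chr2:159139493-159777511), with 2.38%, 2.26% and 1.10% of state 7, and one lies between Slc35b3 and Ofcc1 (chr13:38966298-39617670), with 2.40%, 1.44% and 0.522%. In the desert between Mindy3 and Pter, a gene of the phosphotriesterase family (chr2:12422027-12924036), states 1 to 5 held 14.6%, 18.3% and 18.02% of bins, largely in the 69.8 kb stretch that runs up to the border of Pter and was in these states in all 3 groups. The desert between St3gal1, a sialyltransferase gene, and Zfat, a zinc finger gene (chr15:67377095-68083713), had 9.40%, 9.37% and 6.71%. Over all deserts, 56 unbroken stretches in 26 deserts were in states 1 to 5 in all 3 groups, with a median length of 3700 bp.

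The deserts that kept state 8 most completely were on chromosomes 16 and 19. Between Rorb, a nuclear receptor gene, and Anxa1, an annexin gene (chr19:19319646-19821034), 93.7% of bins were in state 8 in all 3 groups, and state 7 held 0%, 5.95% and 0.200%. Between Rbfox1, a splicing factor gene, and Tmem114 (chr16:7771596-8336992), 92.1% of bins were in state 8 throughout, and state 7 held 0%, 2.16% and 0.142%. The 302 kb stretch of state 8 whose middle bin is printed above lies there. The third runs from Sorcs3 toward Sorcs1, both sorting receptor genes (chr19:48805506-49709520), with 91.7% of bins in state 8 throughout and 0%, 2.50% and 0.819% in state 7.

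**Figure D3:**
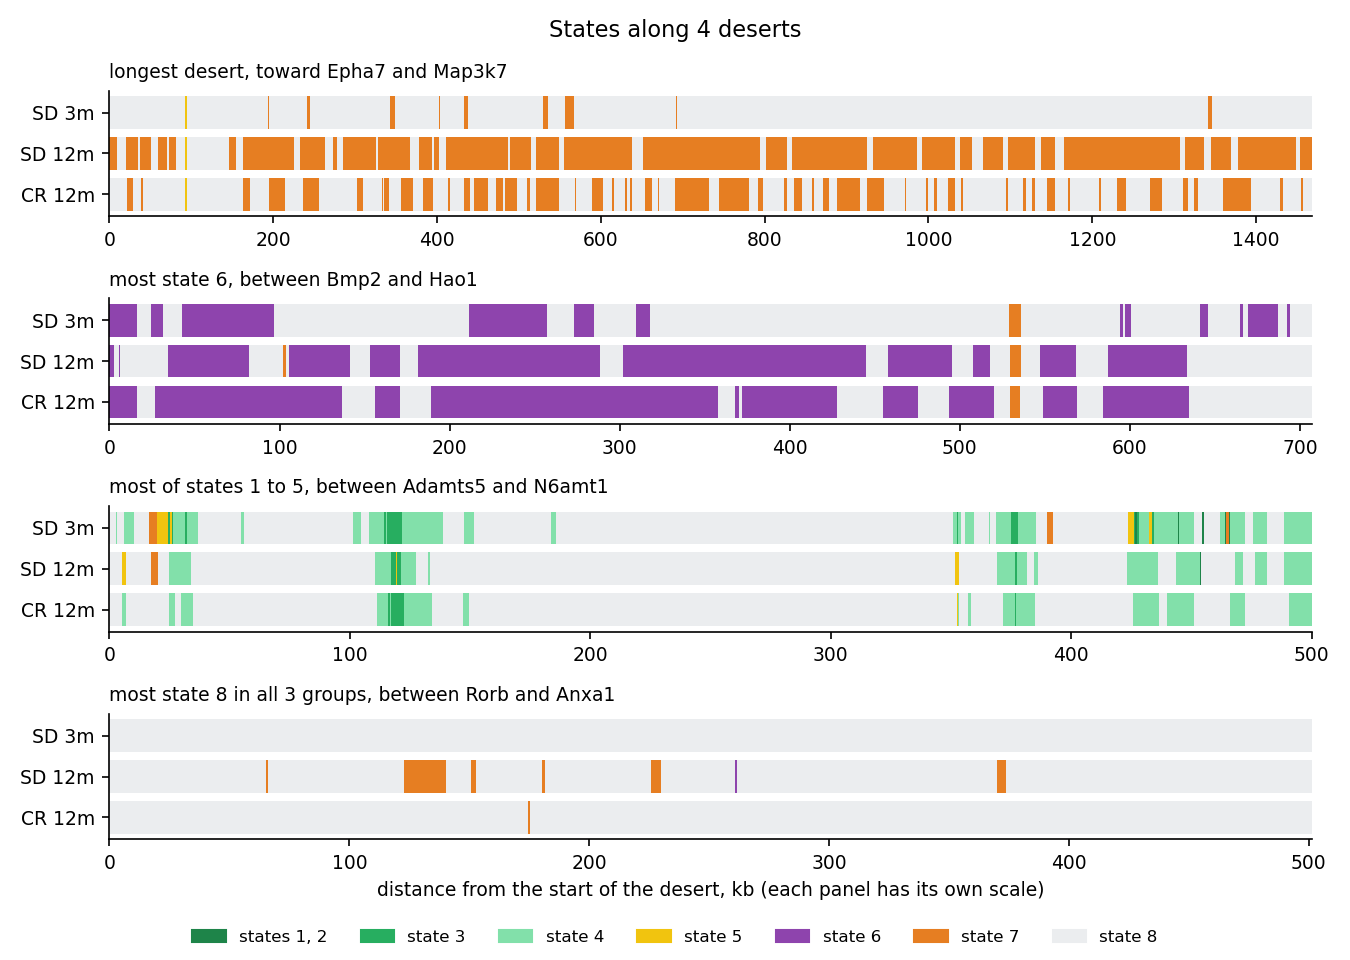
The state of every 200 bp bin is drawn along 4 deserts (x axis: distance from the start of the desert in kb, with its own scale in each panel) as 1 row per group. The longest desert is mostly orange (state 7, 81.4%) in SD 12m and broken orange and grey in CR 12m (33.3%), while the Bmp2 and Hao1 desert is mostly purple (state 6) at 12 months, the Adamts5 and N6amt1 desert keeps green enhancer states at similar places in all 3 rows, and the Rorb and Anxa1 desert stays grey (state 8) in 93.7% of its bins.

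Just above the length limit, the desert of 500.1 kb was the active one beside Adamts5, which had the lowest share of state 7 of all deserts in SD 12m, and that of 501.3 kb between Grin3a, a glutamate receptor gene, and Cylc2, a gene of the sperm head (chr4:50286878-50788226), had 0%, 30.1% and 4.75% of state 7. Just below it, an interval of 498.8 kb (chr15:65195779-65694548) had 0%, 7.14% and 2.89%, and one of 498.3 kb (chr4:96917084-97415416) had 3.85%, 10.4% and 2.17%.

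State 7 did not start at the border of a desert. Its share across the edges was taken in steps of 10 kb with 17250 bins each, which left out some of the 352 edges. In SD 12m the share of state 7 lay between 34.4% and 42.3% over the 250 kb outside a desert. It lay between 39.7% and 47.3% over the 250 kb inside. In CR 12m it lay between 11.1% and 15.4% outside and between 11.7% and 17.7% inside, and at 3 months between 1.23% and 2.89% outside and between 0.870% and 3.63% inside. The regions outside a desert include genes and other intergenic intervals, among them neighbouring deserts. Within deserts, the share in SD 12m was 39.7% in the 10 kb next to a border and 52.8% beyond 300 kb from both borders, a distance that only deserts over 600 kb contain. In CR 12m it was 11.7% and 18.98% at these distances. States 1 to 5 went the other way, from 1.46% of bins at 3 months next to a border to 0.275% beyond 300 kb.

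**Figure D4:**
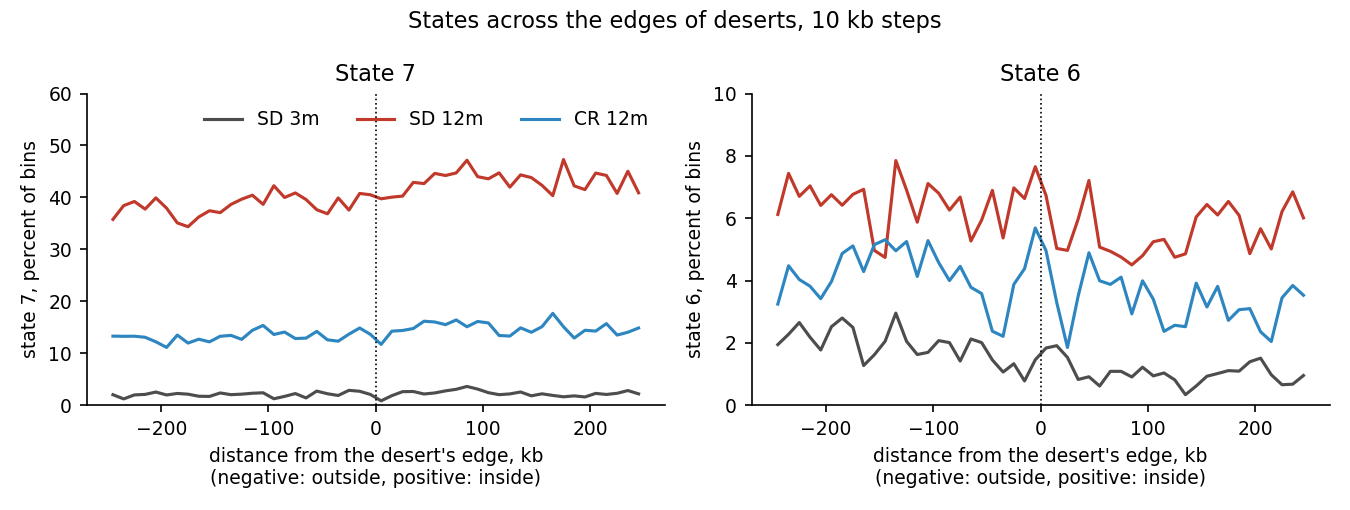
Lines give the percent of bins in state 7 (left panel) and state 6 (right panel, with a y axis that ends at 10%) in steps of 10 kb from 250 kb outside to 250 kb inside the edges of deserts (x axis, with the edge at 0) at 3 months (black), SD 12m (red) and CR 12m (blue). The state 7 lines of the 3 groups stay apart on both sides of the edge, at 40.5% just outside and 39.7% just inside in SD 12m, without a step at the border.

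At 12 months, state 7 came in longer unbroken stretches than at 3 months. Deserts held 849 stretches of state 7 at 3 months with a mean length of 3320 bp and a longest of 26.6 kb. In SD 12m there were 3531 with a mean of 15608 bp and a longest of 284.6 kb, and in CR 12m there were 2708 with a mean of 7020 bp and a longest of 87.6 kb. The number of stretches thus differed less between the 2 groups of 12 months than their length. The 284.6 kb stretch of SD 12m, between Hace1 and Grik2, was in state 8 at 3 months for 98.5% of its bins and in state 7 in CR 12m for 69.3%. State 8, in turn, came in stretches of 99504 bp on average at 3 months, 15201 bp in SD 12m and 30998 bp in CR 12m. The mean length of state 6 stretches was 12529, 14320 and 11621 bp, and their number was 85, 468 and 335.

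Deserts with less GC had more state 7 at 12 months. Over 176 deserts, GC content and the share of state 7 had a Pearson r of -0.617 in SD 12m (Spearman rho -0.625) and of -0.473 in CR 12m (rho -0.560). In the 44 deserts with the lowest GC (35.7% to 36.6%), state 7 had a median share of 0.764% at 3 months, 66.1% in SD 12m and, with caloric restriction, 20.97%. Among the 44 with the highest GC (38.2% to 43.3%) it was 1.45%, 13.1% and 2.75%, and the median of state 6 in SD 12m was 6.74% there and 0% in the 44 of lowest GC. Base composition was compared outside deserts too, in windows of 10 kb. In windows under 36% GC, state 7 held 62.4% of desert bins in SD 12m, 52.3% of bins in other intergenic intervals and 30.9% in gene bodies. In windows of 38% to 39% GC these shares were 36.3%, 23.0% and 10.8%, and in windows of 42% or more they were 19.7%, 2.71% and 1.32%. In CR 12m the same order was found, with 23.2%, 18.3% and 8.83% under 36% GC. In SD 3m, state 7 held 1.77% of desert bins and 2.05% of other intergenic bins under 36% GC, and 2.54% and 3.49% at 38% to 39%. The class of 42% or more has no upper limit. It held 4.01% of desert bins, 39.4% of other intergenic bins and 53.9% of gene body bins, so GC within it need not be alike between the parts.

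**Figure D5:**
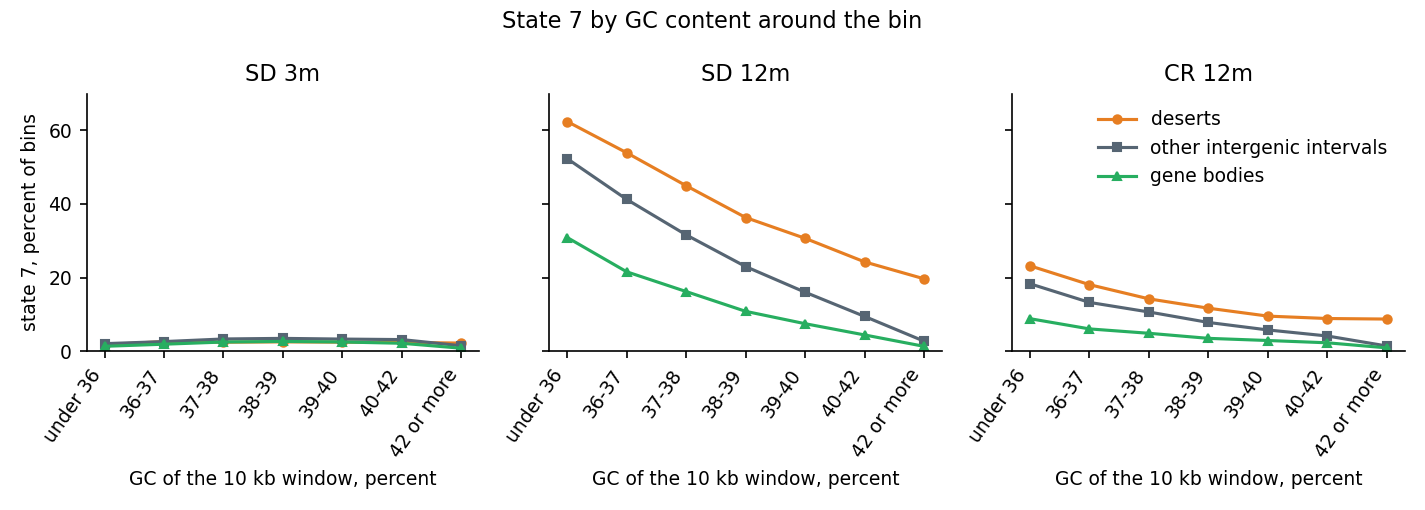
Points give the percent of bins in state 7 (y axis) by the GC content of the 10 kb window around the bin (x axis, 7 classes) for deserts (orange circles), other intergenic intervals (grey squares) and gene bodies (green triangles), with a panel for each group. In SD 12m and CR 12m the desert line lies above the other 2 in every class, from 62.4% down to 19.7% in SD 12m, while at 3 months all lines lie under 4%.

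Repeats went with state 7 in opposite directions between deserts and inside them. Deserts with more repeats had more state 7 (r 0.701 and rho 0.694 in SD 12m, r 0.665 and rho 0.738 in CR 12m, n = 176), with median shares in SD 12m of 13.1% in the 44 deserts with fewest repeats and 65.0% in the 44 with most. Inside a desert, however, the bins that went from state 8 to state 7 were poorer in repeats than those that stayed in state 8. Pooled over deserts, repeats covered 41.1% of the bins in state 8 at 3 months and state 7 in SD 12m, and 47.5% of those in state 8 in both. In a comparison desert by desert that was added after these values were seen, over the 168 deserts with at least 50 bins of both kinds, the former had fewer repeat bases in 154, and the median difference was -9.93 percentage points. In CR 12m they had fewer in 112 of 150 deserts, with a median difference of -6.60 points. GC content, in contrast, had the same direction at both scales, being lower in the bins that gained state 7 in 155 of 168 deserts in SD 12m (median difference -1.12 points) and in 127 of 150 in CR 12m (-0.920 points). Bins that went from state 8 to state 6 in SD 12m held 28.1% of repeats and 38.6% of GC. The authors removed reads with a mapping quality below 1, the value of reads that match several places equally well, and the part of this in the values for repeats was not tested.

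All 19 autosomes held deserts, and the order of the groups was the same on each. On 19 of 19, the share of state 7 in deserts was lowest at 3 months, intermediate in CR 12m and highest in SD 12m, and deserts exceeded the rest of the chromosome on all 19 in both groups of 12 months. Outside deserts, state 7 had the same order of the groups on every autosome except chromosome 19. There the other bins held 0.574% under caloric restriction, against 1.09% at 3 months and 1.34% in SD 12m. At 3 months the deserts exceeded the rest of the chromosome on 7 of 19. The highest share in SD 12m was on chromosome 4, with 63.8% over 10 deserts (2.27% at 3 months and 28.7% in CR 12m), where the other bins had 14.8%. The lowest was on chromosome 19, with 4.38% over 5 deserts (0% and 0.902%), where the other bins had 1.34%. Chromosome 1, with 22 deserts the richest in them, had 5.43%, 56.3% and 19.4%. State 6 in deserts was highest in SD 12m on chromosome 2 (17.2%) and chromosome 11 (17.0%).

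The protein-coding genes nearest to deserts were grouped by function from their symbols. In 67 deserts a gene of neural adhesion, axon guidance or the synapse was nearest on at least 1 side, with 47 such genes in all, of which some, such as Epha7, were nearest to more than 1 desert. They include the cadherin genes Cdh6 to Cdh12, protocadherin genes and Lrrtm4, a postsynaptic adhesion gene. The list takes whole families by the start of the symbol, such as every Cdh, Kcn and Sema gene. The same count was not made for genes nearest to other intervals, so an excess of such genes beside deserts was not tested. In these 67 deserts the median share of state 7 was 1.28% at 3 months, 56.1% in SD 12m and 17.0% in CR 12m, beside 1.33%, 45.2% and 11.8% over all deserts, and 65 of the 67 were at least 10 points higher in SD 12m than at 3 months and 39 in CR 12m, beside 151 and 83 of all 176. Their median GC content was 36.9%, beside 37.2% over all deserts. Only 3 deserts lay next to a developmental transcription factor gene of the list. The desert toward Gata3, a factor of T cell development (chr2:7396342-8147199), had 4.93%, 47.7% and 18.7% of state 7. The desert between Sall1, a factor of kidney development, and Tox3 (chr8:89667305-90247109) had 0.621%, 1.001% and 0.656% of state 7 but 27.4%, 43.7% and 22.5% of state 6. Genes of liver metabolism, transport and secretion were nearest to 5 deserts, through Abca13, Slco4c1, Slco6d1 and Cypt12, the last of which shares its first letters with the cytochrome P450 genes but is a sperm protein gene. The median of state 7 in these 5 was 2.75%, 59.99% and 19.9%, and the SD 12m median is the value of the Cypt12 desert itself. In the other 4, state 7 held 0.304% to 3.80% at 3 months, 33.2% to 79.6% in SD 12m and, under caloric restriction, 9.13% to 22.6%. No desert had a chemosensory receptor gene as its nearest protein-coding gene. The 102 deserts with no listed gene had medians of 1.48%, 37.9% and 8.50%.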

How the data were processed

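Reads were aligned by the authors (BWA 0.6.2-r126, mm10), who removed reads with a mapping quality below 1, duplicates and reads outside chromosomes 1 to 19 and X with SAMtools 0.1.18, merged the libraries of each group and assigned states with ChromHMM. The deposited value is 1 of 8 state labels for every bin of 200 bp, a category and neither a count nor a signal. Merging, the threshold for calling a mark and the smoothing along the genome are contained in the labels and could not be varied.

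From the deposited labels, shares of bins per state and transitions were taken in Python 3.11.15 (numpy 2.4.6, pandas 2.3.3, scipy 1.17.1) and plotted with matplotlib 3.10.9. A bin belonged to a desert where it lay wholly inside it. Repeats are the lower-case bases of the reference, and GC was taken over bins without unassembled bases. The scripts were checked on simulated labels with known transitions.

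Deserts were named by rule: the 5 longest, those closest to 500 kb, those with the largest shares or differences of state 7, state 6 or states 1 to 5, and those with most state 8. Deserts, gene lists and rules were chosen with earlier results of these data known. The authors' coverages were not used. The 8 alternatives of definition are given in the closing section. Values of some regions are not reported here.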

Additional observations from a re-analysis of the deposited data

Results flagged for a closer look

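State 4, an active enhancer state, differed from its share at 3 months by -0.0489 percentage points of desert bins in SD 12m and by 0.0159 points in CR 12m, and thus drew attention by opposite signs. Most of the fall on standard diet came from a single desert, between Adamts5 and N6amt1, so its size does not describe deserts at large. Under caloric restriction, state 4 was likewise less frequent in that desert than at 3 months. The differences over all deserts were not tested, as each group has 1 segmentation. The bins concerned are few, with 1461 in state 4 at 3 months, 1162 in SD 12m and 1558 in CR 12m, and 40.04% of the first were in state 8 in SD 12m against 36.3% in CR 12m.

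In 3 deserts, state 7 was at least 1 percentage point more frequent in SD 12m and at least 1 point less frequent in CR 12m than at 3 months, and in 0 deserts the opposite was seen. These differences were not tested either. Between Api5 and Lrrc4c, a gene of synapse formation (chr2:94807045-95394241), state 7 held 8.21% at 3 months, 36.97% in SD 12m and 5.66% in CR 12m, and state 6 held 0%, 14.5% and 13.0%. Between Sqor and Sema6d (chr2:122931341-123774494), state 7 held 4.63%, 15.6% and 2.51%, and state 6 held 0.641%, 59.5% and 47.2%. Between Marcks and Rfpl4b (chr10:37436976-38059340), state 7 held 6.91%, 10.96% and 3.25%. The share at 3 months was above the median of all deserts, 1.33%, in each of them. This follows largely from the choice, since a share must be at least 1% at 3 months to be 1 point lower in CR 12m.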

How the results depend on the processing

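No paired analysis was possible because each group has 1 segmentation of merged libraries, and for the same reason no library could be left out. State 7 in deserts was lowest at 3 months and highest in SD 12m under all 8 alternatives, with 14.1 to 35.0 times the SD 3m share in SD 12m and 4.65 to 10.6 times in CR 12m. In the order SD 3m, SD 12m and CR 12m, its share was 2.45%, 60.2% and 22.2% for intervals of 1 Mb or more (12 deserts), 2.22%, 37.6% and 12.7% for 300 kb or more, and 1.99%, 28.0% and 9.23% with only protein-coding genes as borders, which makes longer intervals that contain other genes. It was 2.35%, 45.8% and 15.8% without the outer 50 kb, 1.27%, 44.4% and 13.4% from the most frequent state of 10 kb windows, and 43.8% and 15.1% at 12 months with chromosome X. Medians over deserts were 1.33% at 3 months and 11.8% in CR 12m. The change from state 8 to 7, in SD 12m and CR 12m, was 59.6% and 21.4% for 1 Mb, 37.6% and 12.2% for 300 kb, 29.4% and 9.20% for protein-coding borders, 45.4% and 15.1% without the edges, 44.4% and 13.1% in 10 kb windows, 43.7% and 14.5% with chromosome X, and a median of 11.1% in CR 12m. State 6, in the order SD 3m, SD 12m and CR 12m, was 0%, 1.13% and 0.783% for 1 Mb, 1.61%, 7.005% and 4.34% for 300 kb, 4.21%, 10.6% and 6.90% for protein-coding borders, 1.23%, 6.96% and 3.79% with chromosome X, and 0%, 0.383% and 0.376% for medians over deserts. The excess of deserts over other bins at 3 months reversed to -0.613 points for the median over deserts and to -0.217 points in 10 kb windows. The cause was not tested. Depth is unknown, so no limit can be set on marks too weak to be called.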

Other observations

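Chromosome X, which the rule leaves out, held 6 intervals of 500 kb or more with a total of 4.50 Mb. Their Polycomb share stood out from that of the autosomal deserts. State 6 held 11.1% of their bins at 3 months, 47.2% in SD 12m and 20.3% in CR 12m, against 0.872%, 5.48% and 3.19% of autosomal desert bins. State 7 held 1.26%, 9.61% and 2.95%, below the autosomal deserts in each group. The rest of chromosome X had 28.0%, 43.7% and 24.1% of state 6, and 1.45%, 4.93% and 1.34% of state 7. The X intervals thus held more state 7 than the rest of chromosome X in both groups of 12 months, though not at 3 months. The cause was not tested.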
